A study of Ovis aries with 36 samples.

Results

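A group of 10 genes that restrain or relay Wnt signaling was followed through 3 tissues of fetal sheep: the secreted antagonists *SFRP1*, *SFRP2*, *SFRP4*, *FRZB* and *DKK3*, the membrane proteins *KREMEN1*, *LRP1* and *LRP4*, and the intracellular proteins *AXIN1* and *BCL9L*. They were taken by gene name from the count tables, and all 10 of the 10 genes were found in each tissue, among 21301 genes that carried a single name in all 3 tissues. All 10 passed the filter on low counts in each tissue. The data are 36 pooled RNA-sequencing libraries from longissimus dorsi muscle, subcutaneous adipose tissue taken near the shoulder blade, and perirenal adipose tissue. In each tissue, 4 pools came from each maternal diet, 2 of female and 2 of male fetuses, here called F1, F2, M1 and M2. Dams were fed alfalfa haylage (HY), corn (CN) or dried corn distillers grains (DG) from mid to late gestation, fetuses were taken late in gestation, and no group of unfed or standard-diet controls was part of the design. All ewes were Polypay and were bred to the same sire. Most libraries are mixtures of RNA from more than 1 fetus, although the study's list gives a single fetus for the CN pool F2. In that list, every pool but CN F2 shares a dam with another pool of its diet. The fits hold no term for the dam, so the pools of a diet count as independent. The p-values below thus measure the spread between these linked pools. The question was how these genes differ between the tissues, and whether their levels follow the maternal diet in each of them.

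Wnt proteins bind Frizzled receptors together with the co-receptors LRP5 and LRP6. This releases beta-catenin from a destruction complex built on the scaffold AXIN1, and beta-catenin then enters the nucleus and activates genes with TCF/LEF factors. SFRP proteins and FRZB bind Wnt ligands outside the cell, KREMEN1 is a receptor for Dickkopf proteins that removes LRP6 from the surface, and BCL9L links beta-catenin to its coactivators. In fetal tissue, Wnt signaling is known for promoting myogenesis and restraining adipogenesis.

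The libraries held between 6705766 and 29625146 counts each (median 14406914). Muscle libraries were deeper in DG than in CN, by 1.42 times (exact permutation test on log2 totals, two-sided p = 0.0286, the smallest that 4 against 4 pools allow), and 1.28 times deeper in HY than in CN (p = 0.0571). Levels are given as CPM (counts scaled to a common library size) after TMM scaling over the 36 libraries, and they are compared between samples of one gene and not between genes, since gene lengths were not at hand. The labeled tissues were checked with marker genes. Adipocyte markers (7 genes measured of 8 listed) summed to 90.5 to 192 CPM in muscle, 2104 to 11020 CPM in subcutaneous and 5803 to 15350 CPM in perirenal pools. Of them, only *CEBPA* had a lower median in subcutaneous tissue (0.732 CPM) than in muscle (4.29 CPM). Brown adipocyte markers (5 genes) summed to 600 to 1375 CPM in perirenal, 48.8 to 244 CPM in subcutaneous and 45.8 to 63.2 CPM in muscle pools. The muscle sum was mostly *PPARGC1A* (41.7 to 60.8 CPM). This gene ran against the others, with medians of 54.6 CPM in muscle, 23.6 in subcutaneous and 4.30 in perirenal tissue. The median of *UCP1* was 0 CPM in muscle, 60.7 in subcutaneous and 628 in perirenal tissue. Skeletal muscle markers (11 genes measured of 16 listed) summed to 103200 to 153600 CPM in muscle and only 23.4 to 629 CPM in perirenal pools. In subcutaneous pools the same sum ran from 775 CPM in HY F1 to 120800 CPM in DG F1, and HY F2 reached 104500 CPM, so 2 subcutaneous libraries lay within the range of muscle itself. In such bulk samples, fewer cells of a type and less RNA per cell cannot be told apart.

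The tissue differences of these genes were large. By edgeR's quasi-likelihood test with pool as a block, 10 of 10 genes differed between muscle and subcutaneous tissue at FDR ≤0.05, where 72.1% of the 12989 genes tested did. Between muscle and perirenal tissue 9 of 10 differed (80.1% of all genes), and between the adipose depots 9 of 10 (66.9%). Most genes of these tissues differed at this depth, so these counts are read beside that background. By direction, 8 of 10 were higher in muscle than in subcutaneous tissue, where 36.5% of all genes were, and 8 of 10 were higher in muscle than in perirenal tissue, where 39.9% were. The median log2 fold change of the 10 genes was 1.87 for muscle over subcutaneous and 1.39 for muscle over perirenal tissue, against 0.02 and -0.0025 over all genes. Between the depots, 5 of the 10 were higher in subcutaneous tissue (32.6% of all genes) and 4 were lower. Of those 5, *FRZB*, *LRP4* and *KREMEN1* followed the skeletal muscle markers of the subcutaneous pools (r from 0.763 to 0.957, 12 pools). In the pools with the lowest marker sums, HY F1 and DG M1, *FRZB* was at 12.8 and 10.2 CPM, within the perirenal range of 8.07 to 16.3 CPM. *LRP4* was at 9.60 and 17.9 CPM there, also within its perirenal range (6.27 to 24.1 CPM). *KREMEN1* was at 1.42 and 4.65 CPM, and its DG M1 value lay above the perirenal range of 0.14 to 2.52 CPM.

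**Figure D1:**
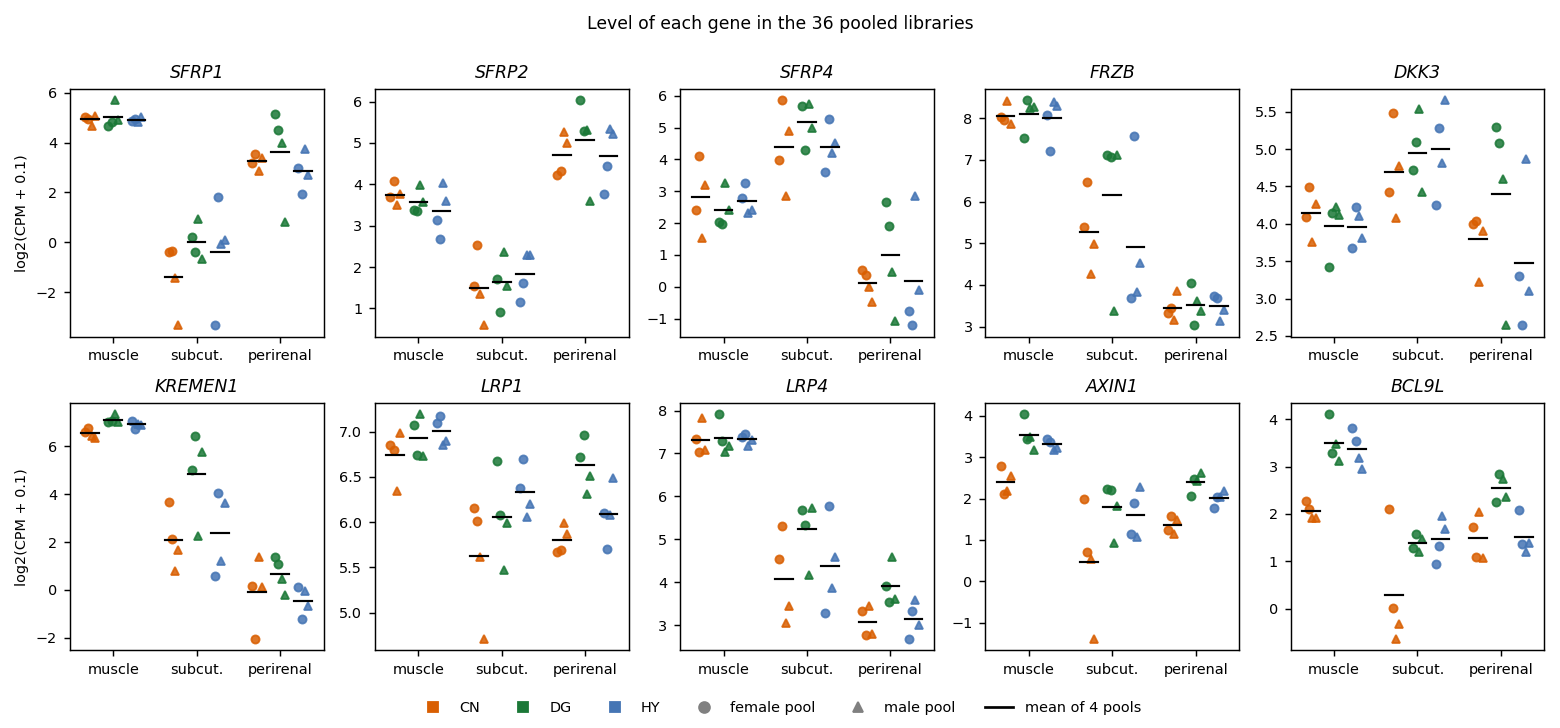
Level of each of the 10 genes as log2(CPM + 0.1) in all 36 libraries, by tissue and maternal diet (colors), with circles for female pools, triangles for male pools and bars for the mean of 4 pools. *KREMEN1*, *FRZB* and *LRP4* are highest in muscle and scatter widely in subcutaneous tissue, and *AXIN1* and *BCL9L* of muscle are lowest in the 4 CN pools.

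The secreted antagonists did not share an order over the tissues. *SFRP1* (chr26:34705319-34747853 in Oar_v3.1, as the muscle table gives it) was at 25.1 to 51.6 CPM in muscle, with a median of 30.5. It was at 1.67 to 35.5 CPM in perirenal tissue (median 9.62) and at 0 to 3.40 CPM in subcutaneous tissue (median 0.67). The subcutaneous libraries CN M2 and HY F1 had no count, which allows up to 0.422 and 0.303 CPM, respectively (3 counts; counting error only). The muscle and subcutaneous ranges were far apart, with a log2 difference of 5.28 ± 0.42 (SE; 12 pools per tissue; FDR 3.63e-10), and perirenal tissue lay between them, 1.61 ± 0.34 below muscle and 3.67 above subcutaneous tissue.

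*SFRP2* (chr17:3719521-3728300) was instead highest in perirenal tissue, at 12.1 to 65.3 CPM with a median of 34.7. Muscle had 6.35 to 16.7 CPM (median 11.8) and subcutaneous tissue 1.41 to 5.68 CPM (median 2.88). Subcutaneous pools overlapped neither of the other tissues, and the difference between the depots was 9.19-fold, with a log2 change of -3.20 ± 0.22 (subcutaneous minus perirenal; FDR 1.23e-11). It was the only gene of the 10 that was lower in muscle than in perirenal tissue at FDR ≤0.05, at -1.31 ± 0.20.

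*SFRP4* (chr4:49722823-49732978) had the reverse order between the depots, at 7.06 to 57.8 CPM in subcutaneous tissue (median 26.2) and 0.33 to 7.13 CPM in perirenal tissue (median 1.05). The depot difference was 3.97 ± 0.43 on the log2 scale (FDR 8.35e-08), a 15.7-fold difference. Its perirenal values rest on 4 to 116 counts per library. Muscle was intermediate, with 2.77 to 17.2 CPM (median 5.21). The 3 SFRP genes thus each had a different tissue at the top: *SFRP1* muscle, *SFRP2* perirenal and *SFRP4* subcutaneous tissue.

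*FRZB* (chr2:125757945-125792352), also known as secreted frizzled-related protein 3, was at 149 to 345 CPM in muscle (median 286), against 8.07 to 16.3 CPM in perirenal tissue (median 10.6). The log2 difference was 4.67 ± 0.46 (FDR 9.98e-09), a 25.5-fold difference. Subcutaneous pools bridged the other tissues, from 10.2 CPM in DG M1 to 191 CPM in HY F2. A second muscle locus with the same name and position held 0 counts in all 12 libraries.

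*DKK3* (chr15:40284778-40335873), a Dickkopf family member that differs from its relatives in not clearly binding LRP6, differed least between tissues among the secreted antagonists. Medians were 17.2 CPM in muscle, 27.5 in subcutaneous and 15.4 in perirenal tissue. Subcutaneous tissue was above muscle (log2 difference of muscle to subcutaneous -0.86 ± 0.23; FDR 0.00189) and above perirenal tissue (0.92 ± 0.23; FDR 0.00159). Muscle and perirenal tissue did not differ beyond their spread, at 0.05 ± 0.23 (FDR 0.838), although perirenal pools ran from 6.15 to 39.1 CPM and muscle pools only from 10.6 to 22.4 CPM.

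Among the membrane proteins, *KREMEN1* (chr17:67964997-68002311) had the widest tissue difference of all 10 genes in the comparison of muscle and perirenal tissue. It was at 81.2 to 162 CPM in muscle, at 1.42 to 85.9 CPM in subcutaneous and at 0.14 to 2.52 CPM in perirenal tissue. The log2 difference between muscle and perirenal tissue was 6.79 ± 0.51 (FDR 2.15e-10), a 111-fold difference. The perirenal values rest on 2 to 46 counts per library.

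*LRP4* (chr15:75017283-75071241), a low-density lipoprotein receptor relative that also acts as the agrin receptor of the neuromuscular junction, had the same order, with medians of 158 CPM in muscle, 23.7 in subcutaneous and 10.3 in perirenal tissue. The log2 difference from muscle was 2.67 ± 0.26 for subcutaneous (FDR 1.08e-08) and 3.95 ± 0.28 for perirenal tissue (FDR 2.71e-11). Loci were assembled separately in each tissue, and the muscle locus of *LRP4* spans 53959 bases against 38800 and 38685 in the adipose tables. Other genes had smaller differences in span. *KREMEN1* spans 37315 bases in muscle against 33940 in subcutaneous and 33936 in perirenal tissue, and *AXIN1* 38480 against 35612 and 35603. *SFRP1* spans 39311 bases in subcutaneous tissue against 42535 in muscle and 42547 in perirenal tissue, and *SFRP2* 7910 against 8780 and 8779. *BCL9L* has the same span in each. How much of the tissue differences comes from the locus spans was not tested.

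*LRP1* (chr3:162123761-162196047), an endocytic receptor of many ligands, differed least among the membrane proteins. Muscle had 81.2 to 146 CPM (median 118), and the adipose depots had medians of 67.1 and 68.2 CPM, with a depot difference of -0.16 ± 0.14 (FDR 0.336). Muscle was 1.83-fold above subcutaneous (FDR 9.35e-06) and 1.64-fold above perirenal tissue (FDR 7.27e-05).

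The intracellular genes *AXIN1* (chr24:236663-275142) and *BCL9L* (chr15:28981913-28992197) followed one order, muscle over perirenal over subcutaneous tissue. *AXIN1* had medians of 9.09, 3.997 and 2.77 CPM, and *BCL9L* 8.74, 3.62 and 2.37 CPM. Muscle exceeded subcutaneous tissue by 1.68 ± 0.20 for *AXIN1* (FDR 1.45e-07) and by 1.85 ± 0.21 for *BCL9L* (FDR 6.36e-08). The depot differences were smaller, at -0.51 ± 0.21 for *AXIN1* (FDR 0.0353) and -0.71 ± 0.22 for *BCL9L* (FDR 0.00698), and that of *AXIN1* was no longer called in 7 of 16 alternative settings (FDR up to 0.135).

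**Figure D2:**
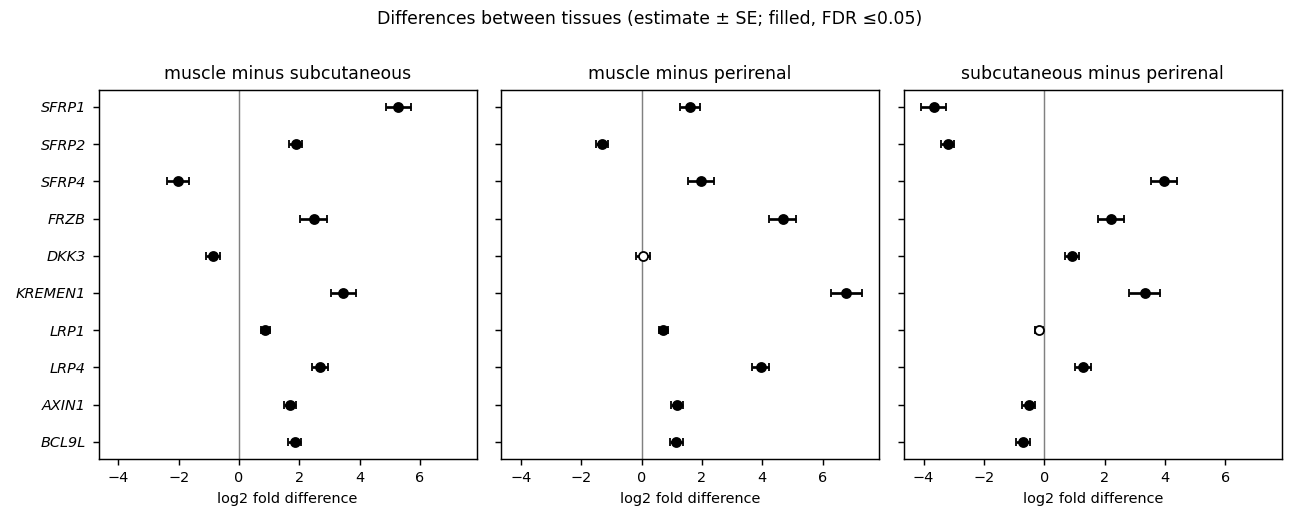
Log2 fold difference of each gene between tissues, averaged over the 3 diets, as estimate ± SE from 36 libraries; filled points passed FDR ≤0.05. *KREMEN1* has the largest difference, 6.79 between muscle and perirenal tissue, and the open points are *DKK3* (muscle minus perirenal) and *LRP1* (subcutaneous minus perirenal).

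The rest of the pathway was read from 7 lists of other Wnt genes, 87 in all, of which 51 could be tested over the 36 libraries. Of these, 39 differed between muscle and subcutaneous tissue, 25 higher in muscle and 14 lower. Between muscle and perirenal tissue 44 differed, 29 higher in muscle and 15 lower, and between the depots 34 differed, 24 higher in subcutaneous tissue and 10 lower. The median log2 fold change of the 51 genes was 0.29, 0.97 and 0.34, respectively, against 1.87, 1.39 and 0.38 in the 10 genes. Since 72.1%, 80.1% and 66.9% of all genes were called in either direction, the counts of list genes called were near that background. By direction, 36.5% of all genes were higher in muscle than in subcutaneous tissue and 39.9% higher than in perirenal tissue. Between the depots, 32.6% were higher in subcutaneous tissue. The counts of list genes in these directions were above those shares, and no list was tested as a set.

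Among the ligands, *WNT4* was at 15.5 ± 3.66 CPM in muscle (SD, n = 12) and at 0.02 ± 0.04 CPM in subcutaneous tissue. No perirenal library had a *WNT4* count, which makes muscle at least 764-fold higher against a floor of 3 counts over the 12 libraries. *WNT11*, a ligand that mostly acts outside the beta-catenin route, was higher in perirenal (72.5 ± 14.8 CPM) than in subcutaneous tissue (28.0 ± 11.9 CPM; log2 difference -1.47 ± 0.11; FDR 5.95e-11). Among the receptors, *ROR1* was at 10.4 ± 1.42 CPM in muscle and 7.87 ± 2.44 CPM in subcutaneous tissue, but at 0.64 ± 0.45 CPM in perirenal tissue. Other antagonists included *DKK2*, a secreted ligand of LRP6 and of KREMEN1, at 65.6 ± 12.2 CPM in muscle, 39.5 ± 21.5 in subcutaneous and 13.6 ± 5.07 in perirenal tissue, the same order as *KREMEN1*.

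In the destruction complex, *AMER1* was 18.3 ± 3.55 CPM in muscle and 1.44 ± 0.64 CPM in subcutaneous tissue (log2 difference 3.70 ± 0.22; FDR 3.71e-13), while *GSK3B*, the kinase that marks beta-catenin for destruction, was lower in muscle than in subcutaneous tissue (27.1 ± 5.47 against 78.8 ± 12.5 CPM; -1.55 ± 0.07; FDR 1.18e-14). *AXIN2*, a feedback target of the pathway, was at 2.52 ± 0.98 CPM in muscle, 0.997 ± 0.58 in subcutaneous and 0.41 ± 0.33 in perirenal tissue. The nuclear partners ran partly the other way, with 3 higher and 4 lower in muscle in both comparisons. *TCF7* was 1.79 ± 0.27 CPM in muscle, 4.604 ± 1.59 in subcutaneous and 9.71 ± 2.58 in perirenal tissue.

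Maternal diet was followed first in muscle, where the study had named *AXIN1* and *BCL9L* from these same samples, so that their direction here is not independent evidence. *AXIN1* was at 6.82, 4.198, 4.40 and 5.76 CPM in the CN pools F1, F2, M1 and M2. In DG it was at 16.3, 10.7, 11.1 and 8.88 CPM, and in HY at 10.8, 10.3, 8.95 and 9.23 CPM. All 4 CN pools lay below all DG and HY pools. *AXIN1* rose by 1.15 ± 0.21 in DG over CN (2.22-fold; FDR 0.02) and by 0.91 ± 0.21 in HY over CN (1.88-fold; FDR 0.038).

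*BCL9L* was at 4.77, 4.198, 3.67 and 3.67 CPM in CN, at 17.1, 9.65, 10.96 and 8.54 CPM in DG and at 13.8, 11.5, 8.95 and 7.61 CPM in HY. Again the CN pools did not reach the other diets. The log2 fold change was 1.51 ± 0.24 for DG over CN (2.85-fold; FDR 0.0148) and 1.38 ± 0.24 for HY over CN (2.60-fold; FDR 0.0153).

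*KREMEN1* was at 96.8, 107, 86.4 and 81.2 CPM in CN, and at 128, 133, 162 and 129 CPM in DG. HY pools were at 134, 107, 122 and 119 CPM, of which F2 lay within the CN range. It rose by 0.58 ± 0.12 in DG over CN (FDR 0.0371), while HY over CN was 0.39 ± 0.12 (FDR 0.0897).

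In total, 3 of 10 genes were called between CN and DG in muscle, all higher in DG, where 1.02% of the 18158 rows tested were called and 0.986% were higher in DG. Between CN and HY 2 of 10 were called, where 2.95% of rows were and 2.64% were higher in HY. At an unadjusted p ≤0.05 there were 3 in each (16.3% and 20.3% of rows). DESeq2 called 3 in each, where it called 689 and 1398 of the 18158 rows, with *KREMEN1* in CN vs. HY at an adjusted p of 0.0382. The pools did not overlap for the same 3 genes in CN vs. DG (8.69% of rows) and for *AXIN1* and *BCL9L* in CN vs. HY (12.5% of rows). The other 7 genes lay between -0.61 (*SFRP4*) and 0.19 (*LRP1*) for DG over CN, with FDR of at least 0.531, so that none of the 5 secreted antagonists was called. Between DG and HY edgeR called 0 of 10 genes and 0 rows, with estimates for DG over HY from -0.23 (*SFRP4*) to 0.25 (*AXIN1*). None of the 10 had an unadjusted p ≤0.05 there (2.18% of rows did), and DESeq2 also called 0 of the 10 and 2 of all rows.

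The calls in muscle rest on few pools. With only the 8 pools of CN and DG in the fit, 0 of 10 genes were called (FDR 0.107 for *AXIN1*, 0.0732 for *BCL9L* and 0.13 for *KREMEN1*) at nearly the same fold changes. Leaving out CN M1 or DG M1 also gave 0 calls in CN vs. DG, and leaving out CN M2 gave 1. In CN vs. HY, 0 were called without CN M1, CN M2, HY F1 or HY F2, and 1 without HY M1 or HY M2. The direction held in each of these fits. As library totals in muscle followed the diet, libraries were also thinned to the lowest total, which left *AXIN1* at 1.22 ± 0.20 (FDR 0.0183) and *BCL9L* at 1.52 ± 0.25 (FDR 0.0176) in DG over CN.

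**Figure D3:**
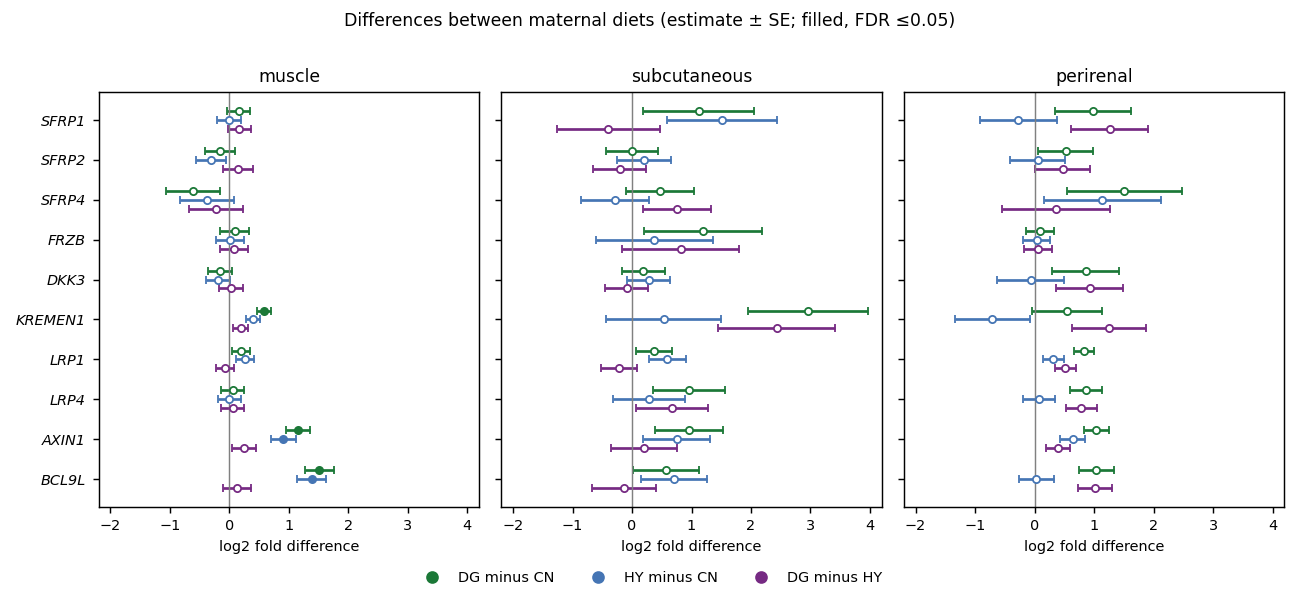
Log2 fold difference between maternal diets in each tissue, as estimate ± SE from 12 pools per tissue; filled points passed FDR ≤0.05. Only *AXIN1*, *BCL9L* and *KREMEN1* of muscle have filled points, and in perirenal tissue all 10 estimates for DG minus CN lie above 0.

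In the wider Wnt lists, 53 genes could be tested in muscle. None was called in CN vs. DG (7 had an unadjusted p ≤0.05, 6 of them higher in DG, where 16.3% of all rows had one), and their median log2 fold change was 0.11 against -0.0031 over all rows. In CN vs. HY 1 was called, where 2.95% of all rows were, and 9 had an unadjusted p ≤0.05, 6 of them higher in HY, where 20.3% of all rows had one. The gene called was *APCDD1*, a membrane inhibitor of Wnt signaling, at 38.4 ± 16.1 CPM in HY and 20.03 ± 1.59 CPM in CN (0.95 ± 0.24; FDR 0.0482). Its HY pools F1, F2, M1 and M2 were at 23.83, 26.84, 44.74 and 58.06 CPM, against 18.35 to 22.15 CPM in CN. The male HY pools thus carried most of the difference. No list gene was called in DG vs. HY, where 4 had an unadjusted p ≤0.05 (2.18% of all rows).

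In perirenal tissue the study had named 7 of the 10 genes in CN vs. DG from these samples (all but *FRZB*, *KREMEN1* and *BCL9L*). It named them through a Wnt term, in an enrichment of genes called by Cuffdiff at a looser FDR threshold than 0.05. It also listed *LRP1* among its genes at FDR ≤0.05. Here, at FDR ≤0.05, edgeR called 0 of 10 genes and 0 of 17927 rows in each diet comparison. At an unadjusted p ≤0.05, 4 of 10 were above CN in DG (9.85% of rows in either direction, 6.68% higher in DG), 1 was above CN in HY (2.34% and 1.15%) and 3 were above HY in DG (9.96% and 6.67%). DESeq2 called 3 of 10 in CN vs. DG, where it called 267 of all rows. It called 0 of 10 in CN vs. HY (2 of all rows) and in DG vs. HY (97 of all rows). All 10 estimates were above 0 for DG over CN and for DG over HY, where 47.3% and 46.8% of all rows were, and the median of the 10 was 0.86 and 0.65 against -0.02 over all rows in each. These comparisons share the DG pools, and since 7 of the 10 genes were named for CN vs. DG on these samples, their shared sign and their median are not independent evidence of a direction.

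*AXIN1*, *BCL9L*, *LRP1* and *LRP4* had the least overlap between CN and DG pools. *AXIN1* was at 2.28, 2.90, 2.11 and 2.71 CPM in CN and at 4.04, 5.45, 5.30 and 6.07 CPM in DG. HY was at 3.34, 3.99, 4.0 and 4.41 CPM, and its pool M2 was above DG F1. All DG and all HY pools were above all CN pools. The log2 fold change for DG over CN was 1.04 ± 0.21 (FDR 0.076; DESeq2 adjusted p 0.00433), close to that in muscle, and for HY over CN it was 0.64 ± 0.21 (unadjusted p = 0.00809 in the edgeR fit; FDR 1.0).

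*LRP1* was at 50.8, 51.8, 63.4 and 58.3 CPM in CN and at 105, 125, 79.4 and 90.9 CPM in DG, with no overlap. HY pools ran from 52.2 to 89.4 CPM. DG over CN was 0.83 ± 0.18 (FDR 0.0953; DESeq2 adjusted p 0.00393).

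*BCL9L* was at 3.21, 2.05, 4.03 and 2.01 CPM in CN, at 4.69, 7.04, 6.58 and 5.01 CPM in DG and at 4.15, 2.50, 2.18 and 2.52 CPM in HY. Here DG stood apart from both other diets, with 1.04 ± 0.29 over CN (FDR 0.187; DESeq2 adjusted p 0.0411) and 1.02 ± 0.29 over HY (FDR 0.333). HY over CN was 0.02 ± 0.29, whereas in muscle HY stood with DG. *LRP4* was at 6.71 to 10.8 CPM in CN and 11.5 to 24.1 CPM in DG (0.87 ± 0.27; FDR 0.245).

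The pools did not overlap for *LRP1*, *LRP4*, *AXIN1* and *BCL9L* in CN vs. DG (6.5% of rows), for *AXIN1* in CN vs. HY (1.61%) and for *BCL9L* in DG vs. HY (5.53%).

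The secreted antagonists of perirenal tissue varied widely within a diet. *SFRP1* was at 35.5, 22.5, 15.7 and 1.67 CPM in the DG pools F1, F2, M1 and M2, and at 9.03, 11.6, 7.25 and 10.2 CPM in CN. The DG pool M2 was thus below every CN pool and the other 3 above. *DKK3* had the same split, at 39.1, 33.6, 24.2 and 6.15 CPM in DG against 15.9, 16.3, 9.26 and 14.9 CPM in CN. *SFRP2* was at 65.3, 39.1, 39.7 and 12.1 CPM in DG against 18.7, 19.8, 38.5 and 32.1 CPM in CN, and *SFRP4* at 6.25, 3.64, 1.28 and 0.38 CPM in DG against 1.35, 1.2, 0.91 and 0.62 CPM in CN. The estimates for DG over CN were 0.98 ± 0.64 for *SFRP1*, 0.86 ± 0.56 for *DKK3*, 0.52 ± 0.47 for *SFRP2* and 1.51 ± 0.97 for *SFRP4*, with FDR from 0.676 to 0.79. In HY, pool M1 stood high for *DKK3* (29.2 CPM, against 6.16 to 9.77 in the others) and for *SFRP4* (7.13 CPM, against 0.33 to 0.84). *FRZB* showed no such spread, at 8.07 to 16.3 CPM over all 12 pools, with 0.09 ± 0.23 for DG over CN.

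These 4 genes moved with the connective tissue markers of the same pools (9 genes measured of 10 listed, collagens and decorin among them). The marker sum was 8913, 5911, 5430 and 2697 CPM in the DG pools, 3137, 3655, 5828 and 3673 CPM in CN and 3027, 2541, 7516 and 4030 CPM in HY, so that DG M2 was the lowest and HY M1 the highest of its diet. Across the 12 perirenal pools, on log2 scales, *SFRP2* followed this sum with r = 0.88 (permutation p = 0.0003, adjusted 0.0024; rho = 0.909, p = 0.00017, adjusted 0.00227; 40 relations computed). *SFRP4* had r = 0.88 (permutation p = 0.00015, adjusted 0.0017; rho = 0.832, p = 0.00136, adjusted 0.00907), *DKK3* r = 0.799 (permutation p = 0.0028, adjusted 0.014; rho = 0.762, p = 0.00555, adjusted 0.0277) and *SFRP1* r = 0.781 (permutation p = 0.00173, adjusted 0.00989; rho = 0.755, p = 0.00639, adjusted 0.0284). Without the 2 pools farthest from the median sum, r was 0.835, 0.743, 0.656 and 0.703, respectively. The labels name no batch within which these relations could be recomputed.

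With this marker sum as a covariate, DG over CN was -0.0965 ± 0.51 for *SFRP1*, -0.0932 ± 0.26 for *SFRP2*, -0.15 ± 0.52 for *SFRP4* and 0.02 ± 0.38 for *DKK3*. *AXIN1*, *LRP1*, *LRP4* and *BCL9L* stayed at 1.09 ± 0.22, 0.75 ± 0.17, 0.76 ± 0.26 and 1.05 ± 0.31. Without DG M2 and HY M1, *SFRP1* was in CN vs. DG at 1.37 ± 0.30 (FDR 0.128) and *DKK3* at 1.19 ± 0.24 (FDR 0.102). *DKK3* was then also called in DG vs. HY (1.99 ± 0.27; FDR 0.0198). These pools were chosen for their marker sums, after the data were seen, so for genes that follow the markers the choice itself moves the values in this direction.

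**Figure D4:**
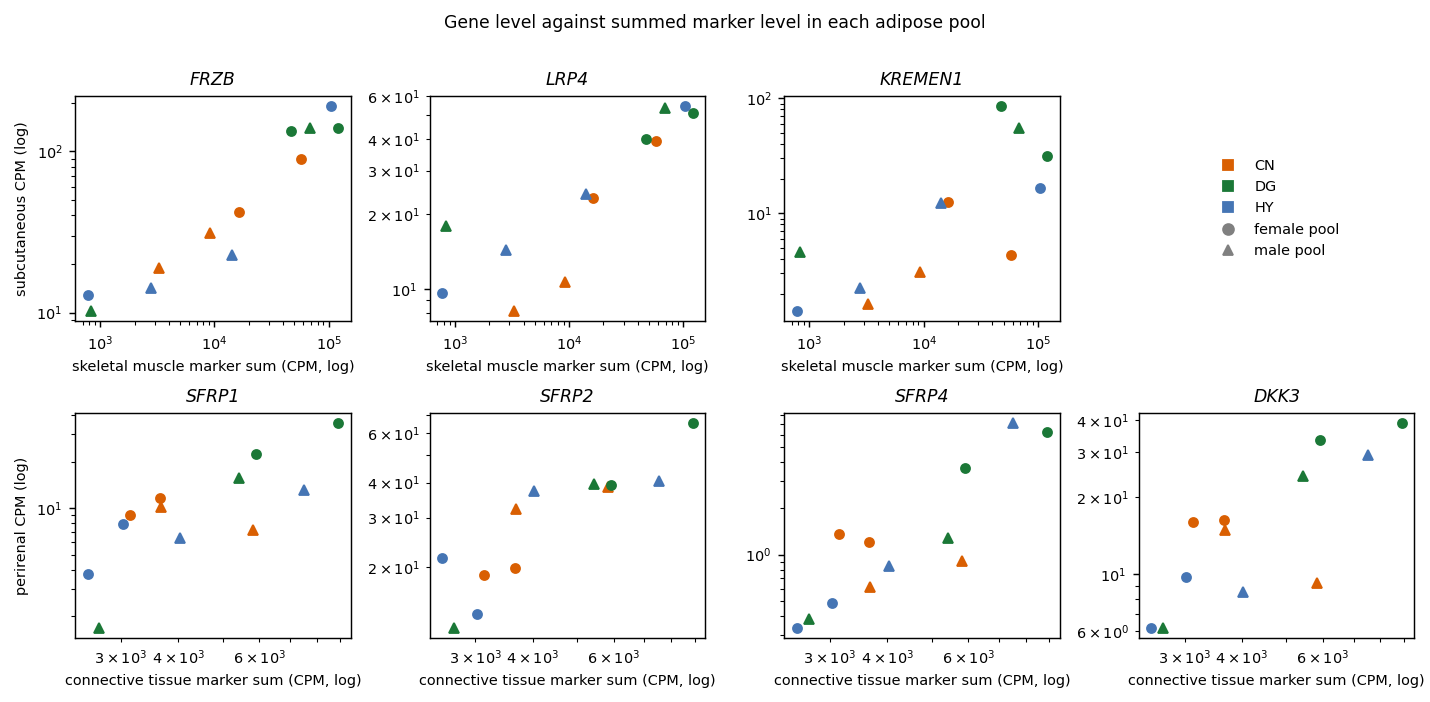
CPM of 3 genes in the 12 subcutaneous pools against the summed skeletal muscle markers (top), and of 4 genes in the 12 perirenal pools against the summed connective tissue markers (bottom), on log axes; colors are diets, circles female and triangles male pools. *FRZB* of subcutaneous tissue climbs with the muscle markers from 10.2 to 191 CPM, and the perirenal DG pool with the lowest marker sum, 2697 CPM, also has the lowest *SFRP1*, 1.67 CPM.

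Of the wider Wnt lists, 37 genes could be tested in perirenal tissue. EdgeR called 0 of them in each diet comparison, with 3 at an unadjusted p ≤0.05 for CN vs. DG, 1 for CN vs. HY and 2 for DG vs. HY. All rows had shares of 9.85%, 2.34% and 9.96% there. The median of the list genes for DG over CN was 0.12, against -0.02 over all rows.

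In subcutaneous tissue the study had named *KREMEN1* from these samples as higher in DG than in CN, among the genes that Cuffdiff called. It also reported a similar pattern for this gene by qRT-PCR on the same RNA. Here edgeR called 0 of 10 genes and 0 of 17746 rows in each diet comparison. DESeq2 called 0 of the 10, though it gave no adjusted p to *FRZB*, nor to *SFRP1* in the comparisons with DG. Over all rows it called 261 in CN vs. DG, 0 in CN vs. HY and 924 in DG vs. HY, so the number of rows called depended on the caller. At an unadjusted p ≤0.05 there was 1 gene of 10 in CN vs. DG (15% of rows, 7.6% higher in DG), 0 in CN vs. HY (4.37%, 2.87% higher in HY) and 1 in DG vs. HY (18.2%, 9.47% higher in DG), in both cases *KREMEN1*. No gene of the 10 had pools without overlap, in CN vs. DG (6.8% of rows), CN vs. HY (2.82%) or DG vs. HY (9.22%).

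*KREMEN1* was at 12.6, 4.32, 1.63 and 3.09 CPM in the CN pools, at 31.7, 85.9, 4.65 and 54.6 CPM in DG and at 1.42, 16.6, 2.23 and 12.4 CPM in HY. The other DG pools, 3 in number, were above all CN and HY pools, while DG M1 lay within their range. The log2 fold change was 2.96 ± 1.01 for DG over CN (FDR 0.273) and 2.43 ± 0.98 for DG over HY (FDR 0.232).

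*KREMEN1* moved with the skeletal muscle markers of these pools, which summed to 120800, 47110, 834 and 68580 CPM in DG, 16250, 57720, 3281 and 9212 CPM in CN and 775, 104500, 2794 and 14190 CPM in HY. The correlation over the 12 pools was r = 0.763 (permutation p = 0.00501, adjusted 0.0223; rho = 0.776, p = 0.00419, adjusted 0.0239), and 0.76 without the 2 farthest pools. With the muscle markers as a covariate, *KREMEN1* was at 2.19 ± 0.60 for DG over CN (FDR 0.103) and at 1.73 ± 0.61 for DG over HY (FDR 0.166). Without the pools with the highest marker sums, DG F1 and HY F2, it was at 3.07 and 3.09.

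*FRZB* and *LRP4*, both high in muscle, followed the same markers more closely. *FRZB* had r = 0.957 (permutation p = 1e-05, the smallest these resamples can give, adjusted 0.0002; rho = 0.958, p = 1e-05, adjusted 0.0004), and 0.959 without the 2 farthest pools. *LRP4* had r = 0.867 (permutation p = 0.00062, adjusted 0.00413; rho = 0.881, p = 0.00043, adjusted 0.00344), and 0.94 without them. *FRZB* ran from 10.2 CPM in DG M1 to 139 CPM in DG M2 within one diet. The estimates for DG over CN were 1.19 ± 0.997 for *FRZB* and 0.96 ± 0.61 for *LRP4*. *SFRP4* of this depot followed the connective tissue markers instead (r = 0.889, permutation p = 0.00017, adjusted 0.0017; rho = 0.902, p = 0.00023, adjusted 0.0023), with r = 0.897 without the 2 farthest pools, and so did *SFRP4* of muscle (r = 0.953, permutation p = 1e-05, adjusted 0.0002; rho = 0.909, p = 0.00015, adjusted 0.00227), with r = 0.959.

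*AXIN1* and *BCL9L*, which were lowest in CN muscle, were also low in most CN pools of subcutaneous tissue. *AXIN1* was at 3.84, 1.53, 1.36 and 0.28 CPM in CN, 4.62, 4.54, 1.80 and 3.42 CPM in DG and 2.12, 3.60, 2.0 and 4.78 CPM in HY. *BCL9L* was at 4.197, 0.91, 0.54 and 0.70 CPM in CN, against 2.18 to 2.90 CPM in DG and 1.82 to 3.77 CPM in HY. The ranges overlapped because of CN F1, and DG over CN was 0.95 ± 0.57 for *AXIN1* (FDR 0.415) and 0.57 ± 0.55 for *BCL9L* (FDR 0.594). These *AXIN1* values rest on 2 to 73 counts per library, and the *BCL9L* values on 4 to 70. The remaining estimates for DG over CN in this depot were 1.12 ± 0.94 for *SFRP1*, -0.0038 ± 0.44 for *SFRP2*, 0.46 ± 0.57 for *SFRP4*, 0.19 ± 0.36 for *DKK3* and 0.37 ± 0.30 for *LRP1*, none of them called.

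Of the wider Wnt lists, 45 genes could be tested in subcutaneous tissue. EdgeR called 0 of them in each diet comparison, with 11 at an unadjusted p ≤0.05 for CN vs. DG (15% of all rows), 2 for CN vs. HY (4.37%) and 15 for DG vs. HY (18.2%).

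Whether a diet difference itself differed between tissues was tested in the fit of all 36 libraries. Of the 10 genes, edgeR called 0 in all 9 contrasts, so a gene called in muscle and not in an adipose depot is not shown to differ between them. At an unadjusted p ≤0.05 there were *KREMEN1*, whose DG response was larger in subcutaneous tissue than in muscle (-2.28 ± 1.0 for DG over CN, FDR 0.599, where 8.07% of all genes had such a p; -2.2 ± 1.01 for DG over HY, FDR 0.255, where 18.3% had), and *BCL9L*, whose HY over CN difference was larger in muscle than in perirenal tissue (1.31 ± 0.51; FDR 0.692; 6.52% of all genes). The DG over HY differences of *BCL9L* and *LRP1* were smaller in subcutaneous than in perirenal tissue (-1.21 ± 0.52, FDR 0.149, and -0.78 ± 0.35, FDR 0.165), a contrast in which 6.16% of genes were called and 24.6% had an unadjusted p ≤0.05. In the other 8 contrasts at most 0.0154% of genes were called. Of the 51 list genes, 5 were called, all in DG over HY of subcutaneous against perirenal tissue: *WNT11* (-1.31 ± 0.27; FDR 0.0188), the Wnt receptor *RYK* (0.57 ± 0.14; FDR 0.0287), the co-receptor *LRP6* (0.81 ± 0.23; FDR 0.0386), *GSK3B* (0.60 ± 0.18; FDR 0.0462) and the corepressor *TLE2* (-1.49 ± 0.45; FDR 0.0495). The genes called in this contrast, 800 in all, fell to 0 without DG F2, DG M2, HY F1 or HY M2. Each of these 5 calls was thus lost when any 1 of those pools was left out. The number of genes called was 29 without HY M1, 512 without CN M2, 1608 without DG F1 and 1814 without HY F2. DESeq2 was not run on these contrasts.

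For female against male pools, with diet in the model, edgeR called 0 of the 10 genes in each tissue, and over all rows it called 0 in muscle, 0 in subcutaneous and 4 in perirenal tissue (0.0223%, and 0.0167% higher in females). At an unadjusted p ≤0.05 there was 1 gene in muscle (3.84% of rows), *BCL9L*, at 0.45 ± 0.16 higher in females (FDR 0.938), and 1 in subcutaneous tissue (14.8% of rows), *LRP1*, at 0.63 ± 0.18 higher in females (FDR 0.281). In perirenal tissue there was none (3.26% of rows). DESeq2 was not run on this comparison.

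The genes with the most similar pattern were sought over the 36 libraries, after the mean of each tissue was subtracted, among 12989 genes. The correlations are descriptions over libraries that share tissues and pools. *FRZB* was closest to *FSD2* (r = 0.946), *TMEM65* (0.942) and *ASB16* (0.933). *AXIN1* was closest to *CHERP* (0.919), *STK11* (0.897) and *KDM4B* (0.896), and *BCL9L* to *HGS* (0.911), a gene listed only by its Ensembl identifier (0.891) and *GORASP1* (0.875). *KREMEN1* was closest to another gene without a symbol (0.905), *MN1* (0.882) and *DENND1B* (0.881), *LRP4* to *WNK2* (0.86), *ADAMTSL4* (0.857) and *OBSL1* (0.856), and *LRP1* to *TMED1* (0.865), *SPNS1* (0.844) and *EFEMP2* (0.844).

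Among the remaining secreted antagonists, *SFRP4* was closest to the matrix genes *FBN2* (0.86) and *COL3A1* (0.856) and to *FNDC1* (0.838), and *DKK3* to *CYP7B1* (0.833), *ARSJ* (0.815) and *VCAN* (0.813), the last encoding the matrix proteoglycan versican. *SFRP1* was closest to *UCHL1* (0.806), *GPR126* (0.772) and *CLDN1* (0.735). *SFRP2* had the weakest partners, *LRRC17* (0.724), *KIAA1456* (0.696) and *CRABP1* (0.675).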

How the data were processed

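RNA pools of longissimus dorsi muscle, subcutaneous and perirenal adipose tissue were sequenced as single-end reads, 12 libraries per tissue. The authors aligned reads to Oar_v3.1 with TopHat2 2.0.4 and assembled loci with Cufflinks 2.1.1 in each tissue. Deposited values are the authors' raw read counts per locus. HTSeq is listed in the submitters' processing notes without a version, and its mode and strand setting are not given in the sources used here, so reads of overlapping or antisense loci cannot be told apart.

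Loci of one name were summed. Counts were filtered with filterByExpr (minimum count 10, minimum total 15) in edgeR 4.0.16 (R 4.3.3) and scaled with TMM. Diets were compared pairwise in each tissue by the quasi-likelihood F test over all 12 pools. Tissues, and differences of diet effects between tissues, were compared in 1 fit of 36 libraries with pool as a block, because the study describes 1 set of 12 pools, so same-named libraries come from the same fetuses; their deviations from group means correlated at 0.092, 0.106 and 0.0418 on average over the 3 pairs of tissues. FDR is the Benjamini-Hochberg value over all rows tested (threshold 0.05). The SE of a log2 fold change is its size over the root of its F statistic. Pools of a group differed by more than sampling noise (lowest chi-square per degree of freedom 9.83 in 54 pairs). Marker sums add CPM over the listed genes present in all tissues, and correlations used log2 values (pseudocount 0.1 CPM) and 100000 permutations. The fits were tested on simulated counts, with the same spread set for all genes. For CN vs. DG, 38% of genes changed by a log2 fold of 1 were recovered in muscle, 29% in subcutaneous and 23% in perirenal tissue. At a log2 fold of 2 it was 99%, 99% and 96%. Of the genes called, 7.43%, 7.91% and 4.03% were false. For muscle vs. perirenal tissue, 98% and 100% were recovered. A diet difference near a log2 fold of 1 that was not called is thus not shown to be absent.

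The rule for named genes covers all 10 genes in every comparison. In comparisons of diet, of diet effects between tissues and of sex, members without values in the text were not called. Between tissues, the text does not print every called estimate. There, only *DKK3* (muscle vs. perirenal) and *LRP1* (between the depots) were not called, and the plot of tissue differences shows all estimates. Of the wider Wnt lists, the rule named up to 5 genes called per diet comparison and up to 3 per list between tissues, and those described were chosen among the latter after their values were seen. The members and lists were chosen with earlier results of these data known. Alternatives were RLE size factors, no filter, DESeq2 1.42.0, the replicate block, compared diets only, each pool left out, the largest locus of a name, marker covariates, and, chosen after seeing the data, thinning and leaving out pools by marker sums. No sequence of the members was used.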

Additional observations from a re-analysis of the deposited data

Results flagged for a closer look

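In groups of 4 pools, 7 of 90 combinations of gene, tissue and diet held a pool that stood apart from the other 3 by more than chance gives in about 1 in 20 groups. In perirenal tissue this was HY M1, for *SFRP4* (7.13 CPM) and *DKK3* (29.2 CPM). In subcutaneous tissue it was DG M1 for *FRZB* (10.2 CPM, low), HY F2 for *FRZB* (191 CPM, high) and CN F1 for *BCL9L* (4.197 CPM, high). In muscle it was DG F1 for *DKK3* (10.6 CPM, low) and DG M1 for *KREMEN1* (162 CPM, high). HY M1 also had the highest connective tissue marker sum of its diet, 7516 CPM, HY F2 the highest skeletal muscle marker sum of its diet, 104500 CPM, and DG M1 the lowest, 834 CPM. Their part in these values was not tested.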

How the results depend on the processing

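Calls between tissues held their number: 10 genes for muscle vs. subcutaneous and 9 for muscle vs. perirenal tissue in each alternative run, and 8 to 9 between the depots. In muscle, CN vs. DG gave 0 calls with the compared diets only, 2 with the replicate block or without the filter, and 0 to 3 when each pool was left out. CN vs. HY gave 0 to 3 when each pool was left out. In perirenal tissue, CN vs. DG gave 3 with DESeq2 and 0 to 1 when each pool was left out, the 1 being *AXIN1* without DG F1, and DG vs. HY gave 1 without DG M2 and HY M1. With the connective tissue covariate, *SFRP1*, *SFRP2* and *SFRP4* turned to -0.0965, -0.0932 and -0.15 in CN vs. DG. The cause of these changes was not tested.

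Same-numbered pools of different diets correlated at -0.0443, 0.191 and 0.0546 on average in muscle, subcutaneous and perirenal tissue, and not every pair was over 0.1, and the labels tie the numbers to no litter, batch or day, so the pools share only a number and a sex. The replicate block moved the rows called from 186 to 134 and 536 to 270 in muscle (CN vs. DG, then CN vs. HY) and from 0 to 281 in subcutaneous DG vs. HY, and changed 1 call of the 10 genes, *KREMEN1* in muscle CN vs. DG (FDR 0.078). Rows called in muscle were 2 and 362 with the compared diets only, 430 and 914 with the connective tissue covariate and 689 and 1398 with DESeq2. In perirenal CN vs. DG they ran from 0 to 267, and in subcutaneous DG vs. HY from 0 to 924.

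Depth limits the least abundant values. *SFRP1* of subcutaneous tissue had 0 to 51 counts per library, and *KREMEN1* of perirenal and *AXIN1* of subcutaneous tissue had as few as 2. *SFRP4* of perirenal and *BCL9L* of subcutaneous tissue had as few as 4.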
